A study of Mus musculus with 15 samples.

Results

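Little-characterized mouse genes, 9 of the 19475 genes in the table, were followed across 3 Tbr1 genotypes: Samd3, Sowahb, Trmt9b, P2rx5, Glt28d2, Sybu, Schip1, Atp8b1 and Runx1t1. The members were chosen from the same table because their values separated Tbr1K228E/K228E embryos from WT or from Tbr1+/K228E embryos. The differences between Tbr1K228E/K228E and the other genotypes are therefore given as a description. The limma adjusted p values and counts of calls printed for members in these comparisons describe the choice and are not read as tests. The values of Tbr1+/K228E embryos entered the choice in part, most of all for Glt28d2, which passed the test against them and not against WT. The choice did not use the sex labels, the Tbr1 level of embryos within a genotype, or what the relatives of the members did. Separation does depend on the spread among embryos of 1 genotype. Genes with a small spread, and with it a small sex difference, were therefore favored by the choice.

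RNA from the brains of 15 mouse embryos at E16.5 was sequenced, with 5 embryos each of WT, Tbr1+/K228E and Tbr1K228E/K228E, and 3 females and 2 males in each genotype. Both mutant genotypes carried a knock-in allele, on the C57BL/6J background, that replaces lysine with glutamate in the T-box DNA-binding domain of TBR1. The floxed neomycin cassette had been removed with a protamine-driven Cre. The labels name whole brain, whereas the methods of the study name the forebrain. Homozygous pups were not found about a week after birth, so the comparison rests on embryos. In such bulk RNA, fewer cells of a type and less RNA per cell cannot be told apart.

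TBR1 is a T-box transcription factor of early-born glutamatergic neurons, including those of the deep cortical layers and the subplate, and it is known for directing their identity and migration. T-box proteins bind DNA through a short element whose usual form is written AGGTGTGA on one strand and TCACACCT on the other. The 9 genes share no pathway. Sybu encodes syntabulin, which links membrane cargo to the kinesin-1 motor in axons, and Schip1 encodes a schwannomin-interacting protein linked to ankyrin G. P2rx5 encodes an ATP-gated cation channel of the P2X family. Atp8b1 encodes a P4-ATPase that flips phospholipids across membranes. Runx1t1 encodes the ETO corepressor, known from its fusion with RUNX1 in leukemia. Trmt9b encodes a putative tRNA methyltransferase, Glt28d2 a glycosyltransferase-domain protein related to ALG13, Sowahb an ankyrin repeat protein, and Samd3 a sterile alpha motif protein of unknown role in neurons.

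The promoter table from RefSeq (GRCm38.p6) held 4 of the 9 genes, Samd3, Sowahb, Glt28d2 and Schip1, with 6 start sites in all. Below are the 250 bases before the start of the gene with the lowest and the gene with the highest level in Tbr1K228E/K228E relative to WT, of Glt28d2, and of the third start of Schip1. They are written 5′ to 3′ on the strand of the gene, and capitals mark matches to the T-box element or its core. Samd3 lies at chr10:26229457-26229706 on the plus strand, Sowahb at chr5:93045023-93045272 on the minus strand, Glt28d2 at chr3:85887519-85887768 on the minus strand, and the third Schip1 start at chr3:68572118-68572367 on the plus strand.
Samd3: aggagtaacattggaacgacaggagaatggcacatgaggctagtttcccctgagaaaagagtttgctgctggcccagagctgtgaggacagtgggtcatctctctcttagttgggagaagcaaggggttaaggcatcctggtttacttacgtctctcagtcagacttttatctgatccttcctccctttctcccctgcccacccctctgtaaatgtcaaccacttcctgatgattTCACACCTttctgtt
Sowahb: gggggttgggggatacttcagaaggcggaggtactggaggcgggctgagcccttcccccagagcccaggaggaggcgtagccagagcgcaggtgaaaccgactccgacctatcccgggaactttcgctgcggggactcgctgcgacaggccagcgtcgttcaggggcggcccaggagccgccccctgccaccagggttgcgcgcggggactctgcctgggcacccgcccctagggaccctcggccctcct
Glt28d2: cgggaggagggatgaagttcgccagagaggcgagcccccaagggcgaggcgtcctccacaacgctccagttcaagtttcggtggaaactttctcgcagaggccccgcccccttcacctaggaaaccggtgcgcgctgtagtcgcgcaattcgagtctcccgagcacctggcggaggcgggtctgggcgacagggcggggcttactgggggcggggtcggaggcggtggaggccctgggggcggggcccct
Schip1: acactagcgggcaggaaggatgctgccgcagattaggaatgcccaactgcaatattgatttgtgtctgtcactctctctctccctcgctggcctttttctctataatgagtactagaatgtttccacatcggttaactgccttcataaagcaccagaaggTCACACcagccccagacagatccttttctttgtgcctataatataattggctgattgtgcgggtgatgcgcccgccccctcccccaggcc

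The full element AGGTGTGA, searched on both strands, occurred in 1 of these 6 promoters. It lay in the Samd3 promoter as TCACACCT, from 15 to 8 bases before the start. Of all 32851 promoters of the same length in the table, 1.12% held it. The core GTGTGA, which is part of the full element, occurred in 2 of the 6, in Samd3 at the same place and in the third Schip1 promoter from 90 to 85 bases before the start, against 12.3% of all promoters. Neither form was found in the windows of Sowahb, Glt28d2 or the other two Schip1 starts. A match describes letters in a window and is not a measurement of binding. The Sowahb and Glt28d2 promoters were rich in G and C, at 70.8% and 69.2%, against 48.8% for Samd3 and a median of 52.4% for all promoters.

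The values below are normalized read counts, that is, read counts estimated per gene and divided by a factor for library size. The 15 libraries summed to between 30.5 and 31.8 M normalized reads. Pearson correlations of log2 values between embryos of 1 genotype lay between 0.971 and 0.988. Tbr1 itself was at 3537 ± 1049 (SD, n = 5) in WT, 6269 ± 1532 in Tbr1+/K228E and 11366 ± 3160 in Tbr1K228E/K228E, a log2 difference of 1.69 between homozygotes and WT (limma adjusted p = 0.00437). The allele replaces 1 residue and does not remove the transcript, so this level does not check the labels as a null allele would. Embryos differed widely in what else the dissected tissue held. The summed level of 17 hindbrain and spinal cord markers ran from 8.20 to 3276 in WT, from 4.87 to 3961 in Tbr1+/K228E and from 7.77 to 576 in Tbr1K228E/K228E. That of 10 meninges markers ran from 508 to 32973, from 4450 to 18468 and from 702 to 21711, in the same order. The 8 forebrain markers were detected in every genotype, with summed levels of 14674 to 37117, 23555 to 37812 and 17688 to 36995.

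The genes spanned a wide range of levels. Per kb of exonic length, and over all 15 embryos, Runx1t1 stood highest at 692 normalized reads, above 86.3% of the 16507 tested genes, those whose mean reached 5. Schip1 followed at 516 and Sybu at 391, above 81.0% and 74.4% of those genes. Trmt9b at 39.8, Samd3 at 16.0, P2rx5 at 11.6, Glt28d2 at 7.58 and Atp8b1 at 6.84 lay in the lower range, and Sowahb at 2.66 stood above only 2.52% of tested genes. In WT alone, Sowahb had the lowest level per kb, 0.848 ± 0.492 (SD, n = 5), while the mean ± SD of Samd3, at 22.7 ± 5.91, overlapped those of its neighbors in that order, Trmt9b at 30.1 ± 4.98 and P2rx5 at 15.6 ± 2.24. No other neighbors in the WT order overlapped within 1 SD. The plot of levels per kb shows 3 genes well above the other 6 in every genotype.

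**Figure D1:**
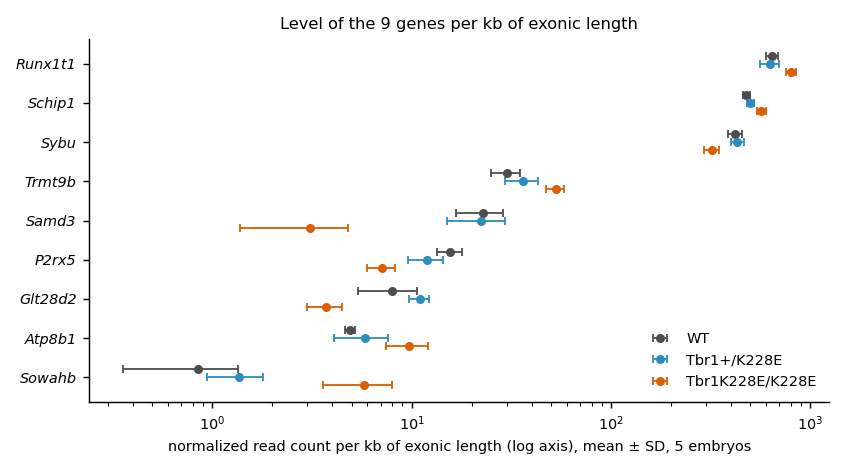
Normalized read count per kb of exonic length on a log axis, as the mean ± SD of 5 embryos in each genotype, for the 9 genes ordered by their mean over 15 embryos. Runx1t1, Schip1 and Sybu lie at 321 or higher in each genotype, and the other 6 genes lie at 52.8 or lower.

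Samd3 (chr10:26229707-26272172, plus strand, ENSMUSG00000051354) lay farthest below WT in homozygotes. Its normalized read counts were 74.1, 90.3, 122.8, 66.3 and 76.2 in WT embryos 1 to 5, and 58.0, 122.4, 101.4, 78.3 and 61.2 in Tbr1+/K228E embryos. In Tbr1K228E/K228E embryos they were 18.9, 2.1, 12.0, 9.5 and 16.2. Every homozygote lay below every other embryo, while WT and heterozygous embryos covered the same range. The log2 difference from WT was -2.98 (SE 0.41), or 7.89-fold lower on the log2(value + 1) scale. Against Tbr1+/K228E it was -2.93 (SE 0.41).

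P2rx5 (chr11:73160421-73172685, plus strand) was also lowest in homozygotes. WT embryos had 39.0, 35.4, 41.2, 42.5 and 29.2 normalized reads, and Tbr1+/K228E embryos had 25.7, 28.0, 38.6, 24.6 and 26.3. Homozygotes had 17.5, 19.5, 14.6, 13.7 and 19.9. The 3 genotypes formed a descending series, with 4 of 5 heterozygotes below all WT embryos and above all homozygotes. The log2 difference of homozygotes was -1.10 (SE 0.18) from WT and -0.71 (SE 0.18) from Tbr1+/K228E.

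Glt28d2 (chr3:85869849-85887516, minus strand) separated homozygotes from heterozygotes rather than from WT. WT embryos had 24.7, 23.9, 28.4, 9.4 and 23.0 normalized reads, and Tbr1+/K228E embryos had 24.3, 33.3, 30.6, 30.3 and 31.7. Homozygotes had 11.4, 11.1, 12.4, 7.5 and 8.6, so that a single WT embryo, number 4, fell within their range. The log2 difference was -1.48 (SE 0.26) from Tbr1+/K228E and -0.97 (SE 0.26) from WT. Of the 31-base words in Glt28d2 transcripts, 13.4% also occurred in Gm37240, a gene that overlaps it, and 2.33% in its X-linked relative Alg13, so that part of its reads could have been assigned to either.

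Sybu (chr15:44671856-44788063, minus strand) differed by little, within a narrow spread. WT embryos had 3020, 3165, 3572, 2985 and 3464 normalized reads, Tbr1+/K228E embryos 3296, 3417, 3140, 3697 and 3072, and homozygotes 2287, 2535, 2486, 2777 and 2288. All homozygotes lay below all other embryos. The log2 difference was -0.39 (SE 0.07) from WT and -0.43 (SE 0.07) from Tbr1+/K228E.

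Sowahb (chr5:93041123-93045022, minus strand) lay farthest above WT in homozygotes, from a low level. WT embryos had 1.8, 1.9, 6.5, 3.6 and 2.8 normalized reads, Tbr1+/K228E embryos 3.2, 6.5, 7.4, 4.2 and 5.3, and homozygotes 22.4, 12.2, 35.4, 18.6 and 23.9. No homozygote overlapped another genotype. The log2 difference was 2.47 (SE 0.34) from WT and 1.86 (SE 0.34) from Tbr1+/K228E, and the added 1 in log2(value + 1) shrinks both. With 0.1 added in place of 1, the difference from WT was 2.81, and with 10 added it was 1.26.

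Trmt9b (chr8:36457548-36516570, plus strand) had group means that rose from WT through heterozygotes to homozygotes, as did those of Sowahb, Schip1 and Atp8b1. Its WT and heterozygous embryos overlapped. WT embryos had 191.1, 173.9, 232.3, 151.6 and 213.5 normalized reads, Tbr1+/K228E embryos 237.2, 271.8, 270.2, 218.0 and 166.1, and homozygotes 321.8, 314.9, 396.6, 332.5 and 320.3. Homozygotes lay above every other embryo, and 3 of 5 heterozygotes lay above every WT embryo. The log2 difference was 0.82 (SE 0.14) from WT and 0.55 (SE 0.14) from Tbr1+/K228E.

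Atp8b1 (chr18:64528967-64661267, minus strand) varied more among heterozygotes, with a coefficient of variation of 30.7%, than among WT embryos, with 5.41%, and homozygotes had 23.8%. WT embryos had 31.2, 33.9, 32.6, 35.6 and 31.6 normalized reads, Tbr1+/K228E embryos 45.0, 57.8, 34.8, 30.4 and 28.8, and homozygotes 55.2, 51.3, 89.8, 71.8 and 59.7. WT embryos stayed within a narrow range below all homozygotes, and Tbr1+/K228E embryo 2 lay among the homozygotes. The 2 highest heterozygotes, embryos 1 and 2, were also those with the highest and the lowest mean log2 level of the hindbrain and spinal cord markers among all 15 embryos, and the part of tissue content in their Atp8b1 level was not tested. The log2 difference was 0.94 (SE 0.20) from WT and 0.74 (SE 0.20) from Tbr1+/K228E.

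Runx1t1 (chr4:13743436-13893649, plus strand) and Schip1 (chr3:68064802-68626481, plus strand) were abundant genes that lay slightly above WT in homozygotes. Runx1t1 had 5030, 4838, 5063, 5728 and 4942 normalized reads in WT, 5009, 4263, 4757, 5494 and 5608 in Tbr1+/K228E and 6068, 6917, 6195, 6602 and 6077 in homozygotes. Schip1 had 2362, 2529, 2573, 2399 and 2359 in WT, 2437, 2687, 2558, 2611 and 2465 in Tbr1+/K228E and 2913, 2788, 3156, 2880 and 2785 in homozygotes. For both genes all homozygotes lay above all other embryos. The log2 difference from WT was 0.32 (SE 0.07) for Runx1t1 and 0.25 (SE 0.04) for Schip1, and that from Tbr1+/K228E was 0.35 (SE 0.07) and 0.19 (SE 0.04). Of the 31-base words in Schip1 transcripts, 38.6% also occurred in Iqschfp, a readthrough transcript of Iqcj and Schip1. Iqschfp had 283 ± 51.0 (SD, n = 5) normalized reads in WT and 288 ± 57.8 in homozygotes, a log2 difference of 0.02 (limma adjusted p = 1).

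**Figure D2:**
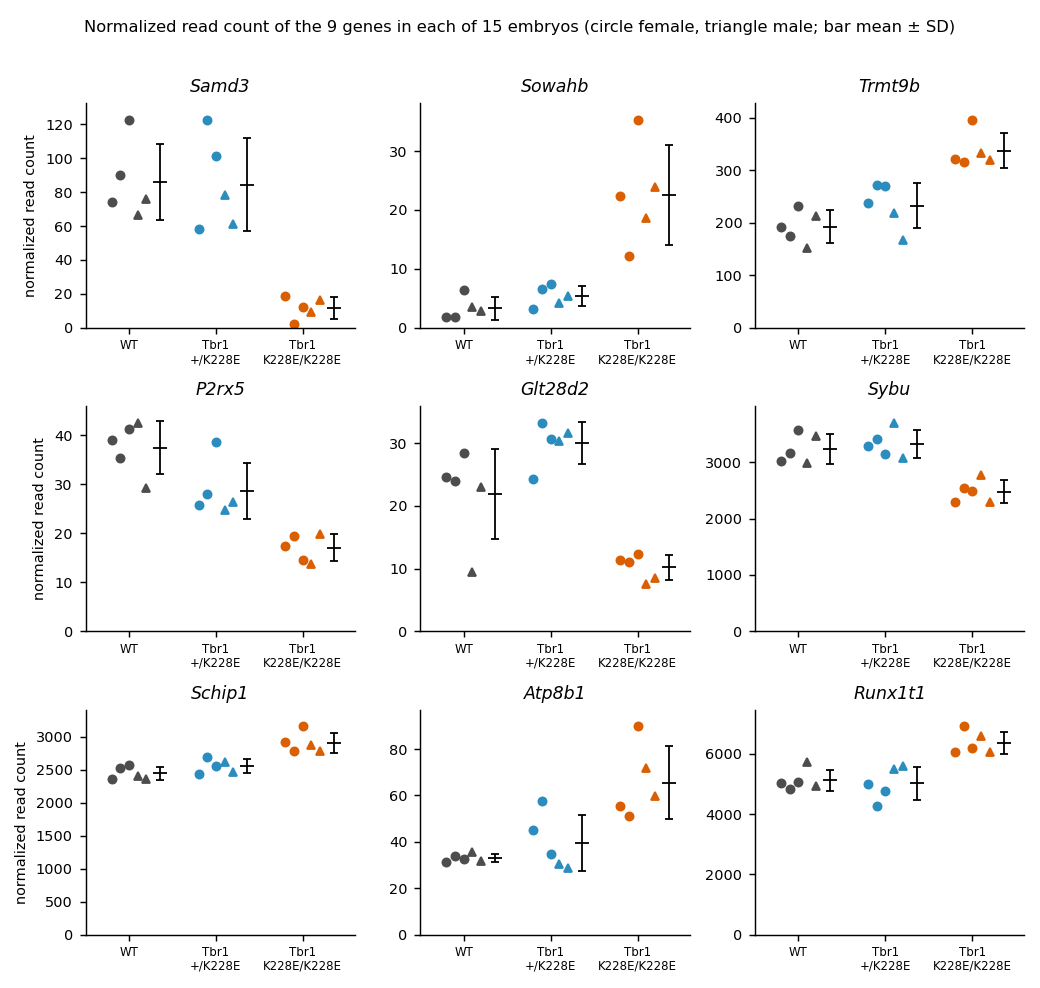
Normalized read count of each of the 9 genes in the 15 embryos, 1 panel a gene, with circles for females, triangles for males and black bars for the mean ± SD of 5 embryos. Homozygotes lie apart from all WT embryos in 8 panels, and in the Glt28d2 panel 1 WT embryo at 9.4 lies among them.

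The share of genes called over the whole table gives the scale for these choices. With limma, an adjusted p under 0.05 was reached by 0.127% of the 16507 genes between Tbr1K228E/K228E and WT, or 21 genes with 10 higher and 11 lower, and 6 of the 9 members were among them. Between Tbr1K228E/K228E and Tbr1+/K228E it was 0.0788%, or 13 genes, and 3 members, Samd3, Sybu and Glt28d2, were among them. Just inside the threshold against WT were Trmt9b, Schip1 and Sybu, each with an adjusted p of 0.0318 from limma, and the nearest member outside was Atp8b1 at 0.154. Against Tbr1+/K228E, Glt28d2 was just inside at 0.0483 and Sowahb just outside at 0.0614. Atp8b1 and Runx1t1 were called in neither comparison. Runx1t1 had a limma adjusted p of 0.202 against WT and 0.136 against Tbr1+/K228E, and Atp8b1 had 0.593 against Tbr1+/K228E. Groups that did not overlap at all were found for 0.594% of genes between homozygotes and WT and for 0.878% between homozygotes and heterozygotes, and for 8 members in each. Since the members were chosen on these comparisons, nothing is read from the counts or from the adjusted p values of members.

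The next comparison was of embryos with 1 mutant allele and embryos with none. Both groups had a part in choosing the members, so that this comparison is not independent of the choice. Between Tbr1+/K228E and WT, none of the 16507 genes passed (0% called), although 295 had an unadjusted p under 0.05, and of the 9 members 0 passed and 1, P2rx5, had an unadjusted p under 0.05. For P2rx5 the log2 difference was -0.38 (95% confidence interval -0.77 to -0.002, limma adjusted p = 0.999), with 4 of 5 heterozygotes below all WT embryos. For Glt28d2, 4 of 5 heterozygotes lay above all WT embryos, with a log2 difference of 0.51 (-0.04 to 1.07, limma adjusted p = 0.999), and without WT embryo 4 the difference was 0.25. With limma over all genes every member had an adjusted p of 0.999. Sowahb, with means of 3.31 in WT and 5.34 in Tbr1+/K228E, reached the tested mean of 5 only through the homozygotes, at 22.5. In a fit of WT and Tbr1+/K228E embryos alone, 8 members were tested and Sowahb was not. The groups overlapped for all 9 members, and for all but 0.26% of tested genes.

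The intervals differed in width from gene to gene. For Sybu the difference between Tbr1+/K228E and WT was 0.04 on the log2 scale (-0.11 to 0.18), for Runx1t1 it was -0.03 (-0.18 to 0.12) and for Schip1 0.06 (-0.03 to 0.15). For Trmt9b it was 0.27 (-0.03 to 0.57), for Atp8b1 0.20 (-0.22 to 0.63, and 0.05 without Tbr1+/K228E embryo 2) and for Sowahb 0.61 (-0.11 to 1.34). Samd3, at -0.05, had an interval from -0.92 to 0.81, the widest of the 9. The fit pooled the spread of all genotypes, so that of the homozygotes enters these intervals. For Samd3 the coefficient of variation was 55.3% in homozygotes, 26.0% in WT and 32.5% in Tbr1+/K228E. The median size of the difference, regardless of sign, was 0.20 over the members and 0.06 over all tested genes. Both groups had a part in choosing the members. Members of low level also had large standard errors, such as 0.41 for Samd3 and 0.34 for Sowahb. Nothing is therefore read from the larger median of the members.

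**Figure D3:**
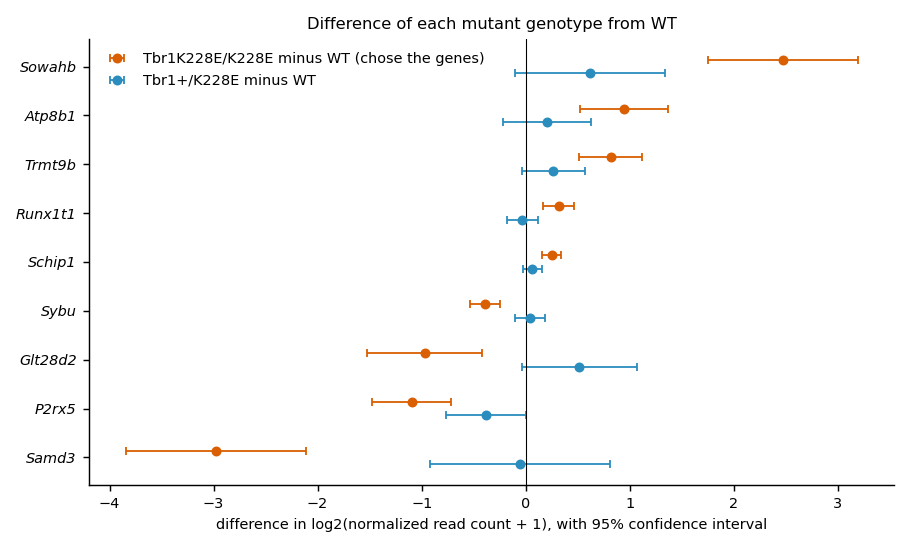
Difference from WT in log2(normalized read count + 1) with its 95% confidence interval for Tbr1K228E/K228E, the comparison that chose the genes, and for Tbr1+/K228E, with 5 embryos in each genotype. The Tbr1+/K228E intervals include 0 for 8 genes, and that of P2rx5 ends just below it.

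Where the heterozygote stood between the other two genotypes differed from gene to gene. As a share of the log2 difference between homozygotes and WT, Tbr1+/K228E lay 35.0% of the way for P2rx5, 32.6% for Trmt9b, 24.9% for Sowahb and for Schip1, 21.5% for Atp8b1 and 1.76% for Samd3. The share was negative, meaning on the far side of WT, for Sybu at -9.54%, Runx1t1 at -9.90% and Glt28d2 at -52.9%. Some shares rested on 1 embryo or a few. For Atp8b1 the share was 5.80% without Tbr1+/K228E embryo 2 and -11.3% without the 4 embryos at the extremes of the hindbrain and meninges markers. For Glt28d2 it was -20.4% without WT embryo 4 and -107% without those 4. Leaving out 1 embryo also took the shares of Samd3 (-2.94% to 6.73%), Sybu (-20.7% to 0.514%) and Runx1t1 (-23.0% to 8.32%) to either side of WT. Tbr1 itself lay 50.1% of the way. The departure of Tbr1+/K228E from the midpoint of WT and Tbr1K228E/K228E was tested over all genes with limma, and 0% passed, with 376 genes at an unadjusted p under 0.05. Of the members 0 passed, each with an adjusted p of 0.994, and 4 had an unadjusted p under 0.05. Tbr1+/K228E minus the midpoint was 1.44 for Samd3 (0.69 to 2.19), 1.00 for Glt28d2 (0.52 to 1.48), 0.23 for Sybu (0.11 to 0.36) and -0.19 for Runx1t1 (-0.32 to -0.06), for each gene on the side of WT. The departure from the midpoint is not independent of the difference between homozygotes and heterozygotes, on which some members were chosen. Samd3, Glt28d2 and Sybu were the members called in that comparison. For them a departure toward WT was favored by the choice, and nothing is read from its direction.

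The sexes were compared over all genotypes. Over all genes 0.0788% passed between the sexes, or 13 genes, and 1822 had an unadjusted p under 0.05, while of the members 0 passed with limma and 0 had an unadjusted p under 0.05. The nearest was Runx1t1, with a log2 difference of male minus female of 0.11 (-1e-04 to 0.22, adjusted p = 0.452). Trmt9b was at -0.22 (-0.44 to 0.01) and Glt28d2 at -0.38 (-0.81 to 0.05). With 2 males and 3 females in a genotype, differences between the sexes in the effect of genotype could be estimated only coarsely, and limma called no gene for any of the 3 genotype comparisons. Of the 27 terms for members, 1 had an unadjusted p under 0.05, that of Runx1t1 between homozygotes and heterozygotes (adjusted p = 0.999).

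Among embryos of 1 genotype, some of the genes moved with the level of Tbr1. With genotype and the log2 level of Tbr1 as terms in 1 limma fit, a comparison added after the data were seen, 18.6% of 16506 genes were related to Tbr1 at an adjusted p under 0.05, and 3 of the 9 members were. Samd3 rose by 1.24 on the log2 scale for each doubling of Tbr1 (adjusted p = 0.0166), Schip1 rose by 0.13 (adjusted p = 0.0197) and Runx1t1 changed by -0.19 (adjusted p = 0.0383). Between genotypes the order was otherwise for Samd3, which was lowest in the homozygotes, where Tbr1 was highest. It was otherwise for Runx1t1 too, which was highest in the homozygotes. Schip1, also highest in the homozygotes, kept the same direction. Over the deviations of 15 embryos from their genotype means, Pearson r with Tbr1 was 0.73 for Samd3 (rho 0.76, permutation p = 0.0019 and 0.00187), 0.81 for Schip1 (rho 0.82, permutation p = 0.00143 and 0.00072) and -0.67 for Runx1t1 (rho -0.57, permutation p = 0.0078 and 0.039). Labels were permuted within genotypes, and 9 such relations were computed. Glt28d2 and Trmt9b were not called by limma, with adjusted p values of 0.1005 and 0.0611. The share of all genes at their unadjusted permutation p values was not computed, so nothing particular to these members is read from them. For Glt28d2 r was 0.65 (rho 0.63, permutation p = 0.0268 and 0.00999), and for Trmt9b it was 0.64 (rho 0.53, permutation p = 0.0141 and 0.0652). For Sowahb, Atp8b1, Sybu and P2rx5 r was 0.55, 0.42, 0.29 and -0.14, each with a permutation p above 0.05. Without the 2 embryos farthest from the median of Tbr1, r was 0.63 for Samd3, 0.90 for Schip1 and -0.49 for Runx1t1.

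The same embryos differed in forebrain content. The deviations of Tbr1 and of the mean log2 level of the 8 forebrain markers, a list that does not hold Tbr1, had r = 0.97 (rho 0.91, both at 1e-05, the smallest p these permutations can give), and with the hindbrain and spinal cord markers r was -0.58. The part of forebrain content in the relations of the members to Tbr1 was not tested. The calls rested on few embryos. Without homozygote 2, which had the lowest Samd3 value of 2.1, the Samd3 slope was 0.72 and Samd3 was no longer called. Without Tbr1+/K228E embryo 2 only Samd3 was called, and without the 4 embryos at the extremes of those and the meninges markers, Tbr1+/K228E embryos 1 and 2 and WT embryos 1 and 3, none of the members was, and 563 genes in all were. The Schip1 call was lost without WT embryo 3 or homozygote 3, and the Runx1t1 call was lost without WT embryo 2 or 4, Tbr1+/K228E embryo 5 or homozygote 2, or with sex as a term.

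**Figure D4:**
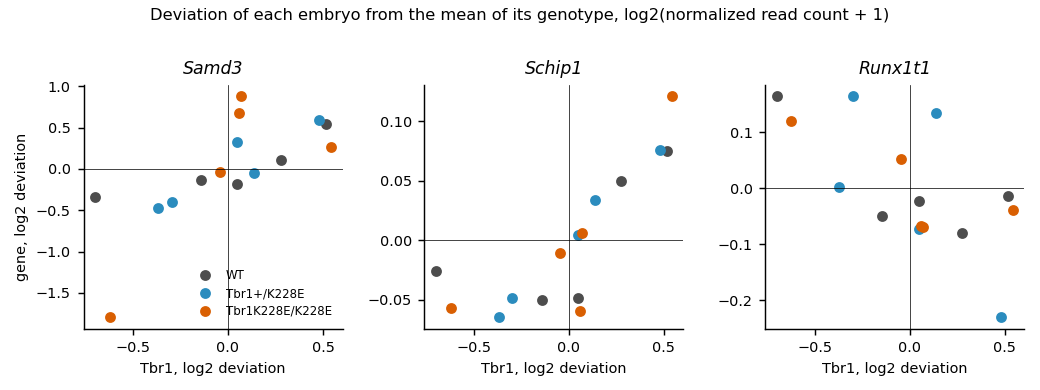
Deviation of each of 15 embryos from the mean of its genotype, in log2(normalized read count + 1), for Samd3, Schip1 and Runx1t1 against Tbr1, colored by genotype. Samd3 and Schip1 rise with Tbr1 (r = 0.73 and 0.81) and Runx1t1 runs the other way (r = -0.67), and 1 homozygote lies far below the rest in the Samd3 panel.

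The genes closest to each member over the 15 embryos are given as a description, since all points share the libraries and the genotype differences. By Pearson r of log2 values, Samd3 was most like Spsb1 and Prex1 (0.94 and 0.94), P2rx5 like Reln and Mc4r (0.88 and 0.86), Glt28d2 like Wnt7b and Bcl6 (0.91 and 0.91), and Sybu like Adamts3 and Nfe2l3 (0.91 and 0.90). Sowahb was most like Schip1 and Vegfd (0.92 and 0.88), Schip1 like Tbr1 and Sowahb (0.93 and 0.92), and Trmt9b like Tbr1 and Schip1 (0.90 and 0.87). Atp8b1 was most like Vegfd and Dsc3 (0.94 and 0.90) and Runx1t1 like Mapk10 and Cxxc4 (0.89 and 0.86). Reln, which encodes the reelin of Cajal-Retzius cells, differed between homozygotes and WT by -0.56 on the log2 scale and was among the 21 genes called, as was Mc4r, a melanocortin receptor gene.

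Over deviations from genotype means the list was different for every member. Samd3 then went most closely with Kcnj2 and Vax1 (0.91 and 0.88), Sowahb with Ap3m1 and Cebpz (0.93 and 0.87), Trmt9b with Stam2 and Rgs9bp (0.89 and 0.86), and P2rx5 with Drc3 and Dhrs1 (0.82 and 0.81). Glt28d2 went with Nelfa and Gm9531 (0.93 and 0.93), Sybu with Hdx and Bicral (0.91 and 0.90), Schip1 with Slain1 and Tnrc18 (0.94 and 0.93), Atp8b1 with Thap3 and Derl3 (0.85 and 0.83), and Runx1t1 with Tac1 and Oprl1 (0.93 and 0.93). Among the members themselves, deviations ran from r = -0.69 for Trmt9b with Runx1t1 to 0.65 for Samd3 with Sowahb, genes whose levels differed in opposite directions in homozygotes.

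No tested gene listed for the family or pathway of a member passed. The 9 lists around the members were drawn up with earlier results of these data known. Of their 101 genes, 96 were tested, and 0 passed with limma in any of the 3 genotype comparisons. At an unadjusted p under 0.05 there were 3 between homozygotes and WT, 0 between Tbr1+/K228E and WT and 2 between homozygotes and Tbr1+/K228E, or 3.13%, 0% and 2.08%, where all tested genes gave 3.24%, 1.79% and 3.30%. The median size of the difference between homozygotes and WT was 0.04 over the related genes and 0.06 over all genes. All 3 at an unadjusted p under 0.05 against WT were P2X receptor genes. P2rx2 was at 181 ± 28.1 (SD, n = 5) normalized reads in WT and 234 ± 23.6 in homozygotes, a log2 difference of 0.38 (limma adjusted p = 0.735). P2rx1 and P2rx7 were at -0.86 and -0.43 (adjusted p = 1 for both), and P2rx3, P2rx4 and P2rx6 lay between -0.34 and -0.02.

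In the other lists the gene with the smallest unadjusted p between homozygotes and WT was close to 0 or had a wide interval, and each had a limma adjusted p of 1. Among 17 tested genes of the lipid-linked oligosaccharide pathway, which builds the sugar chain for N-glycosylation, it was Alg1 at 0.11 (-0.02 to 0.24), and the Glt28d2 relative Alg13 was at -0.15 (-0.38 to 0.09). Among 12 kinesin-1 cargo genes it was Trak1, a mitochondrial adaptor, at -0.08 (-0.17 to 0.01). Among 11 genes of wobble uridine modification in tRNA it was Elp5, of the Elongator complex, at 0.07 (-0.01 to 0.14). Among 7 ankyrin and schwannomin partners it was Iqcj at 0.23 (-0.18 to 0.64). Among 15 flippase genes it was Atp8b2 at 0.13 (-0.07 to 0.33), among 10 sterile alpha motif genes Samd5 at 0.14 (-0.10 to 0.39), of the 2 SOWAH genes Sowaha at 0.15 (-0.21 to 0.51), and, among 16 genes for ETO relatives, RUNX factors and the corepressor complexes and E-proteins they work with, the RUNX factor gene Runx3 at -0.31 (-0.89 to 0.27).

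**Figure D5:**
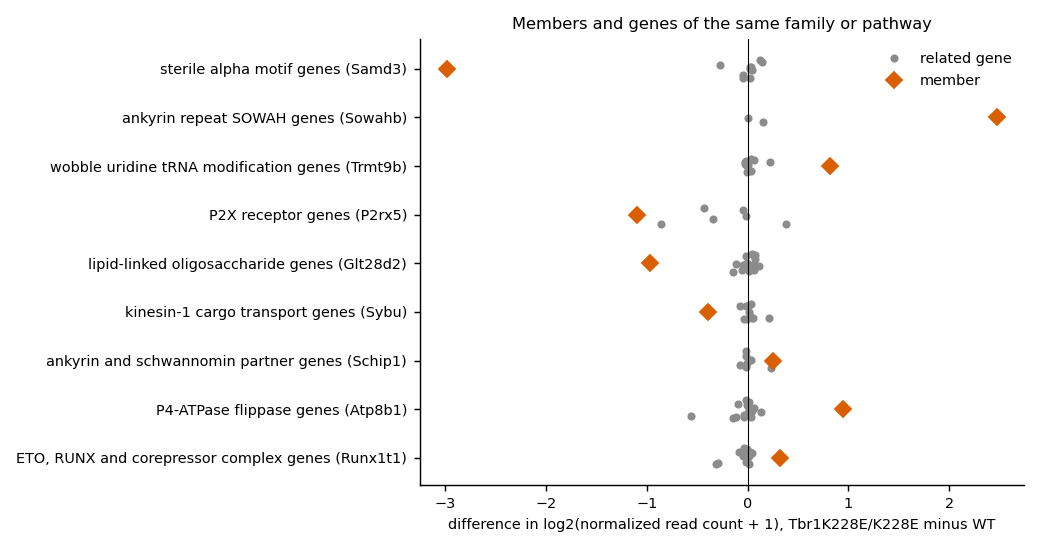
Difference in log2(normalized read count + 1) between Tbr1K228E/K228E and WT for each member (diamond) and for the 96 tested genes of its family or pathway (gray points, spread vertically so that they can be seen). Most related genes lie near 0, with P2X receptor genes from -0.86 to 0.38 and flippase genes from -0.56 to 0.13. The members, chosen for this difference, run from -2.98 to 2.47.

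The nearest tested genes on the chromosome were not called either. Of the 18 neighbors, 1 on each side of each member, 0 passed with limma between homozygotes and WT or between homozygotes and Tbr1+/K228E, with log2 differences from WT of -0.75 to 1.01 and a median size of 0.11. The largest was Slc26a7, 608781 bases after Runx1t1, at 1.01 (adjusted p = 0.446), and the lowest was Itgae, 12975 bases before P2rx5, at -0.75 (adjusted p = 1). Fam160a1, next to Glt28d2, was at -1.04 between homozygotes and Tbr1+/K228E (adjusted p = 0.593). L3mbtl3, 2296 bases after Samd3, was at -0.03. Markers of lymphocytes were low and overlapped between genotypes, with summed levels of 33.8 to 63.2 in WT, 37.5 to 68.0 in Tbr1+/K228E and 30.9 to 55.1 in homozygotes for the 4 of 7 markers in the table.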

How the data were processed

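Total RNA from embryonic brains was sequenced by the authors (unstranded TruSeq library kit, paired-end reads). Per the labels and the study's methods, the authors estimated reads per transcript with Salmon 0.11.2 on GRCm38, summed them to genes and divided them by DESeq2 1.22.2 size factors in R 3.5.3. The deposited signal is this normalized read count. Its values are not whole (0.000359% above 0 are), so whole reads could not be recovered and depth per library is unknown. Symbols were matched for 19452 of 19475 Ensembl identifiers. The members and gene lists were chosen with earlier results of these data known. Genes whose mean reached 5 were tested on log2(value + 1) with limma 3.58.1 (trend) in R 4.3.3, in 1 fit of 15 embryos, with Benjamini-Hochberg adjustment over 16507 genes, and a threshold of 0.05. The fit was tested on simulated data. Correlations used 100000 permutations within genotypes (numpy 2.4.6, scipy 1.17.1). The exact permutation test of heterozygotes against WT was run and is not used, because both groups entered the choice of members. Nothing in the labels says how the embryos fall into litters, and p-values measure the spread between these embryos. Named are the members, list genes called or with the smallest p, the 2 most similar genes by each measure, Tbr1 and nearest neighbors. P2rx1, P2rx7, P2rx3, P2rx4 and P2rx6 were added after their values were seen. Shared words were counted over 31 bases on both strands in GENCODE transcripts.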

Additional observations from a re-analysis of the deposited data

Results flagged for a closer look

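In 4 of the 27 groups of 5 embryos, 9 genes in 3 genotypes, the highest or lowest embryo stood apart by a gap of more than 0.71 of the whole range of the group, which chance gives in about 1 group of 20. Homozygote 3 had 396.6 normalized reads of Trmt9b, with the next at 332.5. Tbr1+/K228E embryo 3 had 38.6 of P2rx5, with the next at 28.0. WT embryo 4 had 9.4 of Glt28d2, with the next at 23.0, and it also had 5728 of Runx1t1, with the next at 5063. WT embryo 4 had the lowest summed forebrain markers of all embryos, 14674, and the highest hindbrain and spinal cord markers of the WT embryos, 3276. Whether tissue content plays a part in these values was not tested.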

How the results depend on the processing

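Under every alternative that was run, no tested member passed between Tbr1+/K228E and WT, for the midpoint or between the sexes, and no tested related gene passed. Not every alternative tested all members. With a mean of at least 50 required, 5 members were tested, and 8 were in the fit of WT and Tbr1+/K228E alone. Some values of Tbr1+/K228E against WT changed sign. Atp8b1, at 0.20 with all embryos, was at -0.10, Runx1t1 at 0.0325 and Samd3 at 0.03 without the 4 embryos extreme in hindbrain or meninges markers, and Runx1t1 at 0.0068 with those markers as covariates, both chosen after seeing the data. Leaving out 1 embryo gave Runx1t1 -0.0726 to 0.0263, Samd3 -0.20 to 0.0837, Atp8b1 0.0547 (without Tbr1+/K228E embryo 2) to 0.30, Glt28d2 0.25 (without WT embryo 4) to 0.62 and Sybu -0.002 to 0.0731. Of the members, 6 were called between homozygotes and WT in the fit of all embryos, 3 in the fit of those genotypes alone, 1 without the 4 extreme embryos and 2 to 6 when 1 embryo was left out, with 2 without WT embryo 1 or 2 or homozygote 1 or 3. Over all genes the count was 21, then 12, 5 and 12 to 22. Between homozygotes and Tbr1+/K228E, 3 members were called, 0 with replicate number as a block, 0 without the 4 extreme embryos, and 1 to 4 when 1 embryo was left out, with 1 without any of Tbr1+/K228E embryos 1 to 4 or homozygotes 1, 2, 3 or 5. Over all genes the count was 13, then 2, 4 and 6 to 17. Single members lost a call against homozygotes in 70 planned and 10 added instances and gained one in 3, and each kept its direction. The causes were not tested. Same-numbered embryos did not deviate together in every pair (r from -0.23 to 0.51), so the numbers were not taken as a pairing, and the block left 4 members called between homozygotes and WT. For the relation to Tbr1, 3 members were called, 0 without the 4 extreme embryos and 1 to 4 when 1 embryo was left out. No library depth was given, so genes near the detection limit, such as Sowahb, carry an unknown counting error.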
